A study of Homo sapiens with 9 samples.

Results

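YAP and TAZ are transcriptional coactivators that bind no DNA themselves and reach their genes through the TEAD transcription factors. Kinases of the Hippo pathway phosphorylate YAP and hold it in the cytoplasm, and YAP-S127A, in which a serine they phosphorylate is an alanine, escapes this control. Genes reported as targets in other cells encode growth factors and matrix proteins, surface receptors, regulators of the actin cytoskeleton, nuclear factors and stress-response proteins. The 32 genes described here are such reported targets, taken from a list by name, without the CCN, caveolin, IGFBP and annexin families. The rule used no expression value. All 32 had at least 1 probe, and 26 were among the 16180 genes tested.

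RNA of MKN45 cells, a widely used line from a human gastric cancer, was hybridised to 9 Illumina single-colour bead arrays. The groups were MKN45 cells with a vector expressing YAP-S127A, MKN45 cells with a control vector and mock MKN45 cells, with 3 arrays each. The labels do not say how the vectors were delivered, when cells were harvested or whether they were cloned. Separate cultures are not stated either, so the spread behind each p-value is that between samples and may be technical.

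Median deposited signals ran from 107 to 136 intensity units, and the precision is limited by the number of arrays. The first principal component (33.4% of the variance) put the YAP-S127A arrays at 14.4 to 16.8 and the 6 control arrays at −15.9 to −4.07. On the second component mock array 1 was farthest out, at a score of 17.9. The 1 probe of YAP1 lay in the lowest part of the array, at 6.12 ± 0.06 in YAP-S127A cells, 6.04 ± 0.09 in vector cells and 6.08 ± 0.09 in mock cells (log2, SD, n = 3 each). It was under the filter on dim probes and does not check the labels. All 12 genes listed as epithelial markers were above background. KRT18 and, named after its values were seen, KRT8 were called higher in YAP-S127A cells than in both controls. Called lower against both controls were 6, among them REG4, LGALS4 and CLDN18. Of all genes tested, 1.34% were called higher and 1.03% lower against both controls. Of 9 fibroblast and mesenchyme markers 5 were above background and 0 were called by limma, with an unadjusted p under 0.05 for 1 against vector and 3 against mock. Over all genes 1.76% were called higher and 1.70% lower against vector, and 2.18% and 2.07% against mock.

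Levels are normalized log2 intensities of the brightest probe of each gene. A call is an adjusted p under 0.05 in a limma fit across all genes, with Benjamini-Hochberg adjustment. The background bound is 6.40, below which 95% of the 437 probes of olfactory receptor genes lay, since these genes are taken as silent in a gastric line. This sorted the 32 targets into classes. There were 6 responding targets, called higher in YAP-S127A cells against both controls: the growth factor FGF2, the vasoactive peptide gene EDN1, the cytokine receptor TNFRSF12A, the ferlin MYOF, the adhesion protein TNS3 and the stress-response gene GADD45B. They make up 18.8% of the 32 and 23.1% of the 26 tested, where 1.34% of all genes tested and 1.66% of those above the background bound were called higher against both controls. No target was called lower against both, where 1.03% of all genes and 1.28% of those above the bound were, although RAI14 and ETV5 had an unadjusted p under 0.05 in both comparisons.

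A further 4 were called against 1 control only. PTGS2 was higher than in vector cells, FJX1 was higher than in mock cells, RAI14 was lower than in vector cells and ETV5 was lower than in mock cells. Another 13 were above background in at least 1 group without a call, and 9 were at background in every group. The count called higher against both controls became 4 when YAP-S127A array 2 or vector array 2 was left out, 5 when YAP-S127A array 1 was, and 7 when mock array 1 was.

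**Figure D1:**
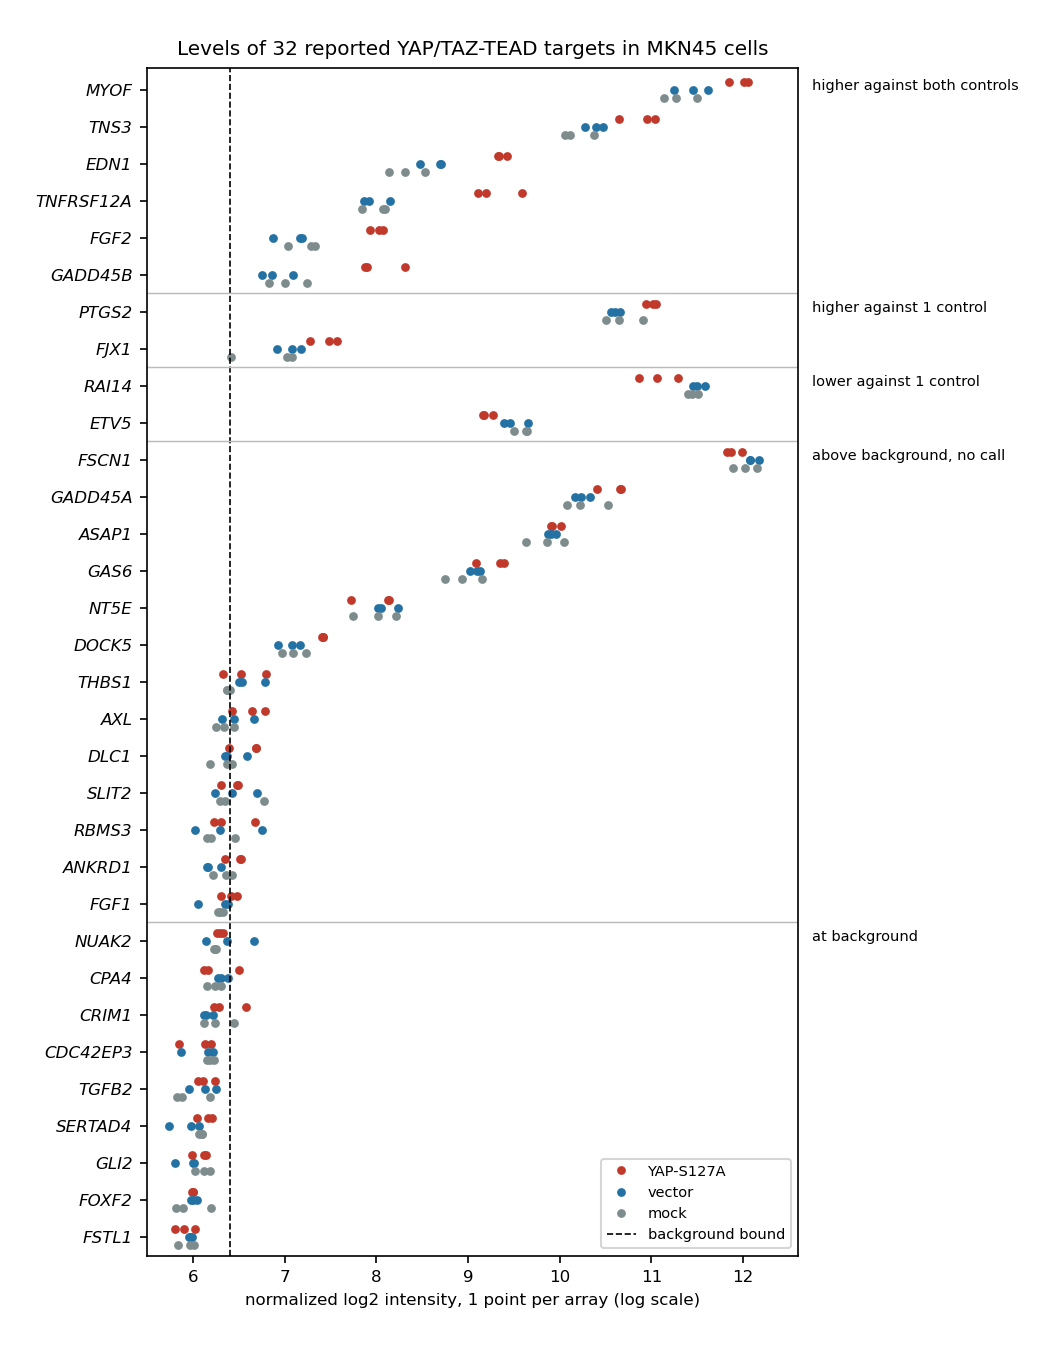
Normalized log2 intensity (log scale, horizontal axis) of the brightest probe of the 32 targets, 1 point per array, with YAP-S127A, vector and mock as separate rows of points and the background bound of 6.40 as a dashed line. The 6 targets called higher against both controls have all YAP-S127A points to the right of all control points, and in the lowest block every group mean is at or left of the bound, with single points up to 6.67.

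Against vector, 7 targets were called higher and 1 lower, where 1.76% and 1.70% of all genes were. Against mock the counts were also 7 higher and 1 lower, where 2.18% and 2.07% of all genes were. The median change of the 26 tested targets was 0.18 against vector and 0.21 against mock (log2), beside −0.00512 and −0.00223 over all genes. In 9 of the 26 the YAP-S127A arrays lay above all 6 control arrays, as in 5.62% of all genes, and in 2 they lay below, as in 5.64%. These comparisons share the YAP-S127A arrays. Without YAP-S127A array 2, or without vector array 2, the count called higher against vector was 4. Between the controls, vector against mock, 0 of the 26 were called by limma, where 0.0124% of all genes were called higher and 0% lower. EDN1 alone had an unadjusted p under 0.05 there (0.30 higher in vector cells), beside 911 of all genes.

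**Figure D2:**
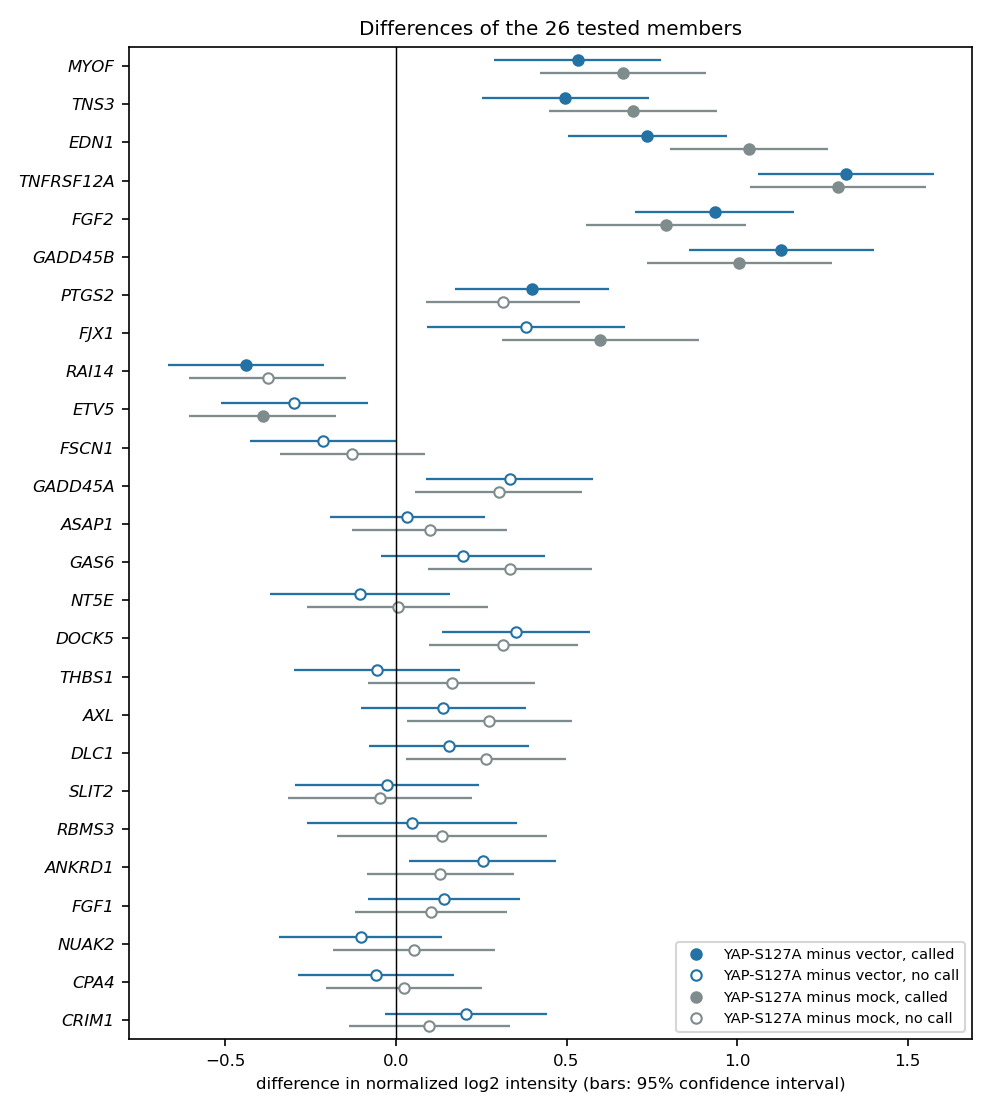
Difference in normalized log2 intensity (horizontal axis) for the 26 tested targets, YAP-S127A minus vector and YAP-S127A minus mock, with 95% confidence intervals from limma. Filled points passed an adjusted p of 0.05, and TNFRSF12A has the highest value in both comparisons (1.32 and 1.30).

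Promoter windows from RefSeq (GRCh38.p14, 250 bases before to 50 after a transcript start) were matched by symbol for 24 of the 32 targets, 39 windows in all. The core of the TEAD motif, GGAATG, on either strand, was found in 10 of these 24 (41.67%), against 16.73% of the 27305 genes with a window, and in 12 of the 39 windows, against 14.03% of all windows. A gene counted if any of its windows held the letters. There were 39 windows for the 24 targets and 35116 for the 27305 genes, so shares by gene rest on unlike numbers of windows per gene. The AP-1 motif TGANTCA, a site of FOS and JUN factors that often lie beside TEAD at enhancers, was in 4 of the 24 (16.67%), against 9.37% of genes. By class, the TEAD core was in 1 of 5 targets called higher against both controls, in 4 of 8 above background without a call and in 4 of 8 at background. Of those called against 1 control only, RAI14 had the core, FJX1 and PTGS2 did not and ETV5 had no window. These counts also leave out TNFRSF12A, CRIM1, DOCK5, ASAP1, DLC1, FSCN1 and GADD45A, for which no window was matched. Shown here are windows of a responding target with the core (EDN1), a responding target without it (GADD45B), a target that was lower (RAI14), an uncalled target near background (ANKRD1) and a target at background (CPA4), so that the letters can be set beside the classes. They run in transcript direction, capitals mark the TEAD core and the AP-1 motif on either strand, and a match describes letters and not a bound site. For each gene 1 window is shown. EDN1 also had windows starting at 12287769 and 12290111, both without the core. RAI14 also had windows starting at 34684257 and 34687309, with the core, and at 34656241, without it.
EDN1, chr6:12289764-12290063, plus strand, the core on the reverse strand 129 bases before the start
EDN1: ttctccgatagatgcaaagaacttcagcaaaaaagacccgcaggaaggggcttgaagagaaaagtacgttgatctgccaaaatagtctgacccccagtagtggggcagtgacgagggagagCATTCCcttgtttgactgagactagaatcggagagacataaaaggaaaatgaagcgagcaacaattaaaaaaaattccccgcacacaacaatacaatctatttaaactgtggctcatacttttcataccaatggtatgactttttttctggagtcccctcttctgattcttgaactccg
GADD45B, chr19:2475877-2476176, plus strand, with neither motif
GADD45B: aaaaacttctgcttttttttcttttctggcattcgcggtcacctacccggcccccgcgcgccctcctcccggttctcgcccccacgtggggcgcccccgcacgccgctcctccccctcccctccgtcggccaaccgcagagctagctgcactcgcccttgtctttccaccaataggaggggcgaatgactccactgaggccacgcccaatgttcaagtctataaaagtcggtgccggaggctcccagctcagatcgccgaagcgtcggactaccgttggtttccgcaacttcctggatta
RAI14, chr5:34656078-34656377, plus strand, the core at 137 and 126 bases before the start
RAI14: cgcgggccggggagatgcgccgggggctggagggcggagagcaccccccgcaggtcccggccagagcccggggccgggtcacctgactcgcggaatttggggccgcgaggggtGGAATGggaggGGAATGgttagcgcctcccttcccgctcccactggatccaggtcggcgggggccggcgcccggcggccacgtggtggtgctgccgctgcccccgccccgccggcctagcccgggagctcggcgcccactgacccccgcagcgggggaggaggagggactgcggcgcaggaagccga
ANKRD1, chr10:90921038-90921337, minus strand, the core at 220 and 128 and AP-1 at 195 bases before the start
ANKRD1: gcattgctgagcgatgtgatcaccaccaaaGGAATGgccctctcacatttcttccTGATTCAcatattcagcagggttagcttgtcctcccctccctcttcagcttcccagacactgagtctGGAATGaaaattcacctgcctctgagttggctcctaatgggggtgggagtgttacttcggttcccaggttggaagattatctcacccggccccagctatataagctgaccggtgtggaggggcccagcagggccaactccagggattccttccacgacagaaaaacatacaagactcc
CPA4, chr7:130292911-130293210, plus strand, the core at 134 and AP-1 at 48 and 15 bases before the start
CPA4: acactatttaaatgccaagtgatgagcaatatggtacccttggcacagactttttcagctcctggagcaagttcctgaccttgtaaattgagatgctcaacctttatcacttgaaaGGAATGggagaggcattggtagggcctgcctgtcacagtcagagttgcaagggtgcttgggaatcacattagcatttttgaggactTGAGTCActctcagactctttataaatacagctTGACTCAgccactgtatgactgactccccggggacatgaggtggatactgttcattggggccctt

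The 10 targets grouped under secreted ligands and matrix also take in the kinase FJX1 and the carboxypeptidase CPA4. Of the 10, 2 rose against both controls. EDN1, the precursor of the vasoconstrictor endothelin, was at 9.42, 9.32 and 9.34 on the YAP-S127A arrays, 8.48, 8.70 and 8.70 on the vector arrays and 8.31, 8.53 and 8.14 on the mock arrays (log2). The YAP-S127A arrays lay above every control array and close together. The rise was 0.74 ± 0.11 against vector and 1.03 ± 0.11 against mock (log2, SE, adjusted p = 0.000198 and 1.77e-06, limma), which is 1.67-fold and 2.05-fold. An array averages all cells of a sample, so more cells with a transcript and more transcript per cell cannot be told apart, here or below.

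FGF2, a fibroblast growth factor, was at 7.93, 8.08 and 8.03 on the YAP-S127A arrays, 7.17, 6.88 and 7.19 on the vector arrays and 7.29, 7.33 and 7.04 on the mock arrays. Again no control array reached the lowest YAP-S127A array. The brightest probe rose by 0.93 ± 0.11 and 0.79 ± 0.11 (adjusted p = 8.15e-06 and 7.49e-05, limma), or 1.91-fold and 1.73-fold. The further FGF2 probe was dimmer, at 6.71 in YAP-S127A cells, 6.50 in vector cells and 6.49 in mock cells, and its differences of 0.21 and 0.22 were not called. With the mean of both probes the change was 0.57 and 0.50, still called. Neither FGF2 call ended when any single array was left out. FGF1, another fibroblast growth factor, was at the bound, with 6.40 in YAP-S127A cells, 6.26 in vector cells and 6.30 in mock cells.

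FJX1 is the human relative of four-jointed, a kinase of the Golgi that in Drosophila modifies the cadherins Fat and Dachsous. It was at 7.48, 7.57 and 7.27 on the YAP-S127A arrays, 7.18, 6.92 and 7.09 on the vector arrays and 6.42, 7.02 and 7.08 on the mock arrays. Mock array 1 was the lowest of the 9 and close to background. The rise of 0.60 ± 0.14 against mock passed (adjusted p = 0.014), and the difference of 0.38 against vector did not (adjusted p = 0.156, limma). Without mock array 1 the change against mock was 0.39 (adjusted p = 0.0935), and the call also ended without YAP-S127A array 1 (0.0624) or array 2 (0.0935). Leaving out mock array 1 also brought FJX1 past the threshold against vector (0.38, adjusted p = 0.0407).

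GAS6, the ligand of the receptor kinases TYRO3, AXL and MERTK, was well above background, at 9.28 ± 0.17 in YAP-S127A cells, 9.08 ± 0.06 in vector cells and 8.95 ± 0.20 in mock cells (SD, n = 3 each). It differed by 0.20 and 0.33 without a call (adjusted p = 0.448 and 0.114), and its array ranges overlapped. Without mock array 3 it was called against mock (0.44, adjusted p = 0.0332). The next probe of GAS6 gave 0.06 and 0.34. The axon guidance ligand SLIT2 was at 6.43 in YAP-S127A cells, 6.45 in vector cells and 6.47 in mock cells. THBS1, the matricellular thrombospondin that binds CD47 and CD36, was at 6.55 in YAP-S127A cells, 6.61 in vector cells and 6.39 in mock cells, with single arrays between 6.33 and 6.80. Neither had a group mean more than 0.25 above the bound. TGFB2, a ligand of the TGF-beta receptors, FSTL1, a secreted follistatin-like protein, and CPA4, a carboxypeptidase, were at background in all 3 groups. Of these, CPA4 was tested and differed by −0.06 and 0.02.

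Of the 5 proteins of the cell surface and membrane, 2 rose against both controls. TNFRSF12A, the receptor of the TNF family cytokine encoded by TNFSF12, had the largest change of the 26 tested targets in both comparisons. Its levels were 9.59, 9.11 and 9.20 on the YAP-S127A arrays, 7.92, 8.15 and 7.86 on the vector arrays and 7.84, 8.10 and 8.07 on the mock arrays. The gap between the lowest YAP-S127A and the highest control array was wider than the spread within any group. In the deposited signals no control array reached the lowest YAP-S127A array either, at 799, 604 and 522 units in YAP-S127A cells, 326, 276 and 282 in vector cells and 268, 350 and 334 in mock cells. The rise was 1.32 ± 0.12 and 1.30 ± 0.12 (adjusted p = 2.18e-07 and 2.79e-07, limma), or 2.49-fold and 2.46-fold. That ranked 22 among the 16180 genes against vector and 23 against mock, from the largest increase.

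MYOF, a ferlin of membrane fusion and repair, was far above background. It was at 11.85, 12.01 and 12.05 on the YAP-S127A arrays, 11.45, 11.24 and 11.62 on the vector arrays and 11.50, 11.14 and 11.27 on the mock arrays. The YAP-S127A arrays lay above all controls, by a narrower margin than for TNFRSF12A. The rise was 0.53 ± 0.12 against vector and 0.67 ± 0.12 against mock (adjusted p = 0.00969 and 0.0011). Its other 2 probes rose by 0.47 and 0.56 against vector and by 0.55 and 0.52 against mock, each called with every probe tested. The call against vector ended without YAP-S127A array 2 (adjusted p = 0.0562) or vector array 2 (adjusted p = 0.0886), and that against mock held with each array left out.

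AXL, the receptor tyrosine kinase that binds GAS6, was near background, at 6.62 ± 0.18 in YAP-S127A cells, 6.48 ± 0.18 in vector cells and 6.34 ± 0.10 in mock cells. Its further probe differed by 0.32 and 0.30, also without a call. NT5E, the surface enzyme that makes adenosine from AMP, was clearly above background, at 7.73, 8.14 and 8.12 on the YAP-S127A arrays, 8.05, 8.24 and 8.02 on the vector arrays and 8.02, 8.22 and 7.75 on the mock arrays. The 3 groups overlapped. Its 95% confidence intervals ran from −0.37 to 0.16 against vector and from −0.26 to 0.27 against mock. CRIM1, a membrane protein that binds bone morphogenetic proteins, was at background, with 6.37 in YAP-S127A cells, 6.16 in vector cells and 6.27 in mock cells.

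**Figure D3:**
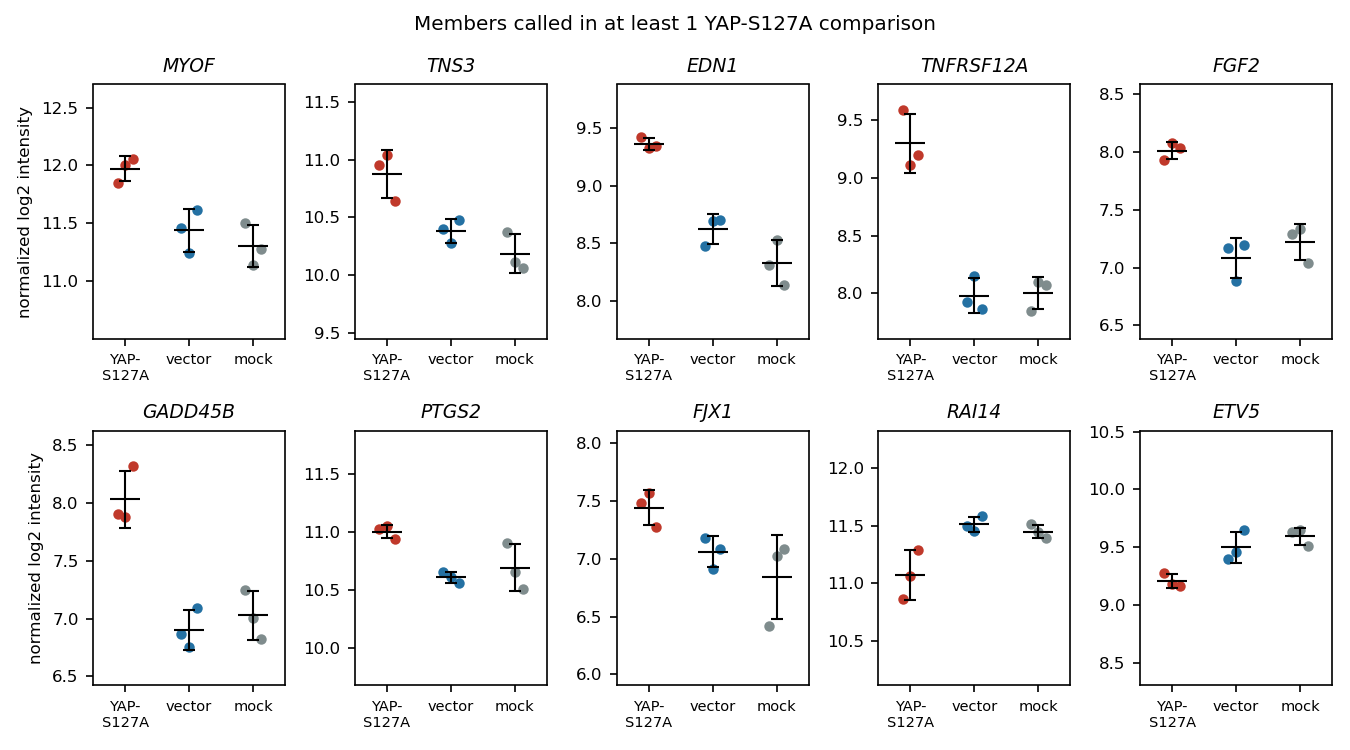
Normalized log2 intensity (vertical axis, each panel with its own range) of the 10 targets called in at least 1 comparison, 1 point per array, with group means and SD as bars, in the order YAP-S127A, vector, mock. The YAP-S127A points lie above all control points in 8 panels and below them in those of RAI14 and ETV5.

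The 7 regulators of the cytoskeleton split. TNS3, a tensin that links integrin adhesions to actin, was at 10.95, 11.04 and 10.64 on the YAP-S127A arrays, 10.40, 10.27 and 10.47 on the vector arrays and 10.38, 10.11 and 10.06 on the mock arrays. YAP-S127A array 3 was the lowest of its group and still above the controls. The rise was 0.50 ± 0.12 against vector (adjusted p = 0.0174) and 0.69 ± 0.12 against mock (adjusted p = 0.000737, limma). The call against vector ended without YAP-S127A array 1 (adjusted p = 0.0904), YAP-S127A array 2 (0.13) or vector array 2 (0.103), and that against mock held with each array left out.

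RAI14, an ankyrin-repeat protein that binds actin, moved the other way. It was at 10.86, 11.06 and 11.29 on the YAP-S127A arrays, 11.50, 11.45 and 11.58 on the vector arrays and 11.51, 11.44 and 11.40 on the mock arrays. All YAP-S127A arrays were below all controls, with a wider spread than either control group. RAI14 fell by 0.44 on the log2 scale against vector (SE 0.11, adjusted p = 0.0256), and its difference of −0.38 against mock missed the threshold (adjusted p = 0.0562, limma). The call against vector ended without YAP-S127A array 1 (−0.34, adjusted p = 0.172), YAP-S127A array 2 (0.0964) or any of the vector arrays 1, 2 and 3 (0.0701, 0.0614 and 0.13). Without YAP-S127A array 3 RAI14 was also called against mock (−0.49, adjusted p = 0.0192).

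FSCN1, which bundles actin in filopodia, was far above background and was not called, at 11.89 ± 0.08 in YAP-S127A cells, 12.11 ± 0.05 in vector cells and 12.02 ± 0.13 in mock cells. ASAP1, a GTPase-activating protein of Arf proteins, was at 9.95 ± 0.06 in YAP-S127A cells, 9.91 ± 0.04 in vector cells and 9.85 ± 0.21 in mock cells. The difference of this probe was 0.03 (95% confidence interval −0.19 to 0.26) against vector and 0.10 against mock. The further ASAP1 probes differed by −0.07 and 0.23 against vector and by 0.04 and 0.29 against mock, uncalled. DOCK5, an exchange factor of Rac, was at 7.42, 7.41 and 7.42 on the YAP-S127A arrays, 7.17, 6.93 and 7.09 on the vector arrays and 7.24, 7.09 and 6.97 on the mock arrays. Its YAP-S127A arrays lay above every control, but its differences of 0.35 and 0.31 missed the threshold (adjusted p = 0.0692 and 0.0995, limma). Without mock array 1 the adjusted p of DOCK5 against vector was 0.0439. It was 0.0379 with array weights and 0.046 with only the groups compared in the fit. DLC1 was near background at 6.59 in YAP-S127A cells, 6.44 in vector cells and 6.33 in mock cells, and CDC42EP3, an effector of CDC42, was at background.

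Of the 6 nuclear and RNA-binding regulators, 0 rose by limma in either comparison, and ANKRD1 alone had an unadjusted p under 0.05 for a higher level, against vector. ETV5, an ETS transcription factor, was at 9.27, 9.18 and 9.16 on the YAP-S127A arrays, 9.39, 9.45 and 9.65 on the vector arrays and 9.63, 9.64 and 9.51 on the mock arrays. The YAP-S127A arrays were the lowest 3 of the 9. ETV5 fell by 0.39 on the log2 scale against mock (SE 0.10, adjusted p = 0.032), and its difference of −0.30 against vector was not called (adjusted p = 0.131). The further ETV5 probe differed by −0.33 against vector and −0.26 against mock, uncalled. The call against mock ended without any 1 of the YAP-S127A arrays 1, 2 and 3 (adjusted p = 0.0651, 0.122 and 0.0988) or of the mock arrays 1 and 2 (0.0945 and 0.0932).

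ANKRD1, a nuclear ankyrin-repeat cofactor often used as a readout of YAP, was near background. Its levels were 6.35, 6.53 and 6.51 on the YAP-S127A arrays, 6.17, 6.16 and 6.31 on the vector arrays and 6.22, 6.43 and 6.36 on the mock arrays. The YAP-S127A arrays overlapped the mock arrays and not the vector arrays. The differences were 0.25 and 0.13 (adjusted p = 0.214 and 0.584, limma). RBMS3, an RNA-binding protein, was at 6.40 ± 0.24 in YAP-S127A cells, 6.36 ± 0.37 in vector cells and 6.27 ± 0.16 in mock cells. FOXF2, a forkhead factor, GLI2, the Hedgehog pathway transcription factor, and SERTAD4, a SERTA-domain protein, were at background and under the filter on dim probes.

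The 4 stress-response and signalling genes held 1 responding target. GADD45B, induced by stress and by cytokines, was at 7.90, 7.88 and 8.32 on the YAP-S127A arrays, 6.86, 6.76 and 7.09 on the vector arrays and 7.25, 7.01 and 6.83 on the mock arrays. Every YAP-S127A array was above every control. The rise was 1.13 ± 0.13 against vector and 1.01 ± 0.13 against mock (adjusted p = 4.75e-06 and 2.41e-05, limma), or 2.19-fold and 2.01-fold. Its paralog GADD45A, which p53 induces, was not called, at 10.58 ± 0.15 in YAP-S127A cells, 10.24 ± 0.09 in vector cells and 10.28 ± 0.23 in mock cells. The difference of GADD45A was 0.33 against vector and 0.30 against mock (adjusted p = 0.138 and 0.174), and its further probe gave 0.25 and 0.38. With the mean of its probes GADD45A was called against mock (0.34, adjusted p = 0.0444, limma). Whether the 2 genes differ in response was not tested.

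PTGS2, the cyclooxygenase that starts prostaglandin synthesis, was at 11.02, 11.05 and 10.94 on the YAP-S127A arrays, 10.66, 10.61 and 10.56 on the vector arrays and 10.91, 10.65 and 10.51 on the mock arrays. Mock array 1 came close to the YAP-S127A arrays. PTGS2 rose by 0.40 ± 0.11 against vector (adjusted p = 0.0433), and its difference of 0.31 against mock was not called (adjusted p = 0.115). Its further probe differed by 0.29 and 0.22, uncalled. The call against vector ended without any 1 of the YAP-S127A arrays 1, 2 and 3 (adjusted p = 0.137, 0.167 and 0.0734), of the vector arrays 1, 2 and 3 (0.0823, 0.127 and 0.163) or mock array 2 (0.0529). Without mock array 1 PTGS2 was called against mock (0.43, adjusted p = 0.0378). NUAK2, a kinase of the AMPK family, was at background, with 6.29 in YAP-S127A cells, 6.40 in vector cells and 6.24 in mock cells.

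**Figure D4:**
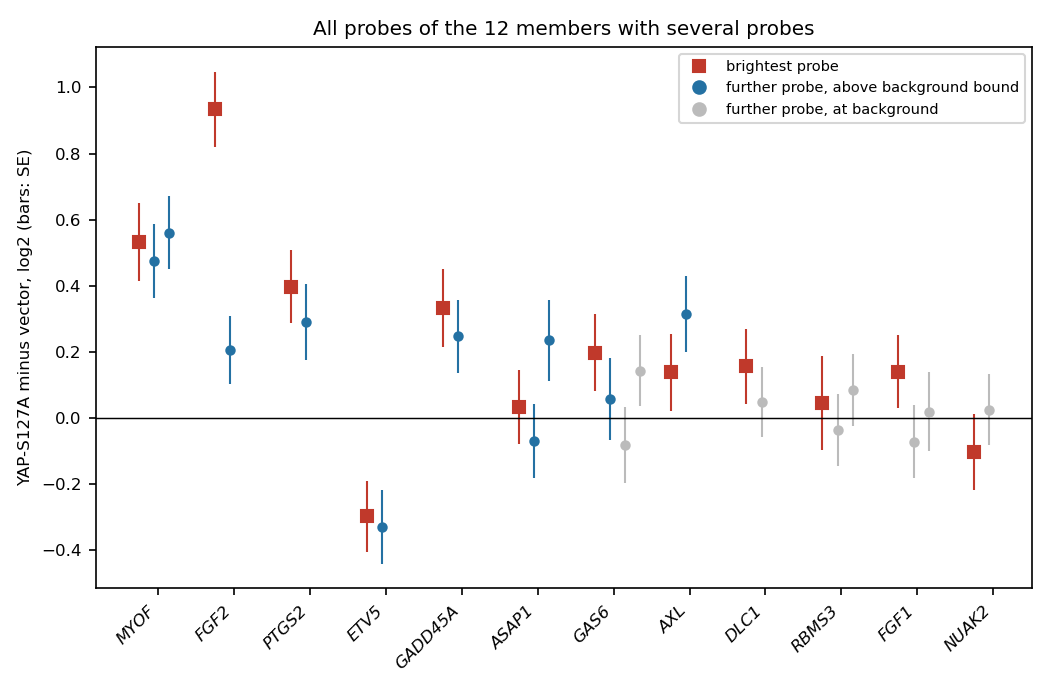
YAP-S127A minus vector on the log2 scale (vertical axis, bars are SE) for each probe of the 12 targets with several probes, with the brightest probe as a square and further probes as points, grey where at background. The 3 MYOF probes lie between 0.47 and 0.56, and the FGF2 probes lie apart at 0.93 and 0.21.

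In the class above background without a call, 6 of the 13 were clearly expressed: FSCN1, GADD45A, ASAP1, GAS6, NT5E and DOCK5. The other 7 (THBS1, AXL, DLC1, SLIT2, RBMS3, ANKRD1 and FGF1) had their highest group mean within 0.25 of the bound. For all 13, the 95% confidence intervals in both comparisons stayed within 1.5-fold, with the highest upper limit at 0.58 against vector and 0.57 against mock and the lowest lower limit at −0.43 and −0.34 (log2). Intervals that left out 0 were those of DOCK5, FSCN1, ANKRD1 and GADD45A against vector, and of GAS6, AXL, DOCK5, DLC1 and GADD45A against mock. A missed threshold does not show that these genes did not change, and background light shrinks the differences of the 7 dim ones.

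The 9 targets at background were TGFB2, FSTL1, CPA4, CRIM1, CDC42EP3, FOXF2, GLI2, SERTAD4 and NUAK2. Their group means lay between 5.91 and 6.40, and single arrays lay between 5.74 and 6.67. For 6 of them the mean over the 9 arrays was under the filter at 6.18, so no test was made. CPA4, CRIM1 and NUAK2 were tested and not called in either comparison. None of the 9 rose to a clear signal in YAP-S127A cells, as every group mean stayed at or below the bound. A fall or a small rise would be hidden at this level. A level at background does not show that a transcript was absent.

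**Figure D5:**
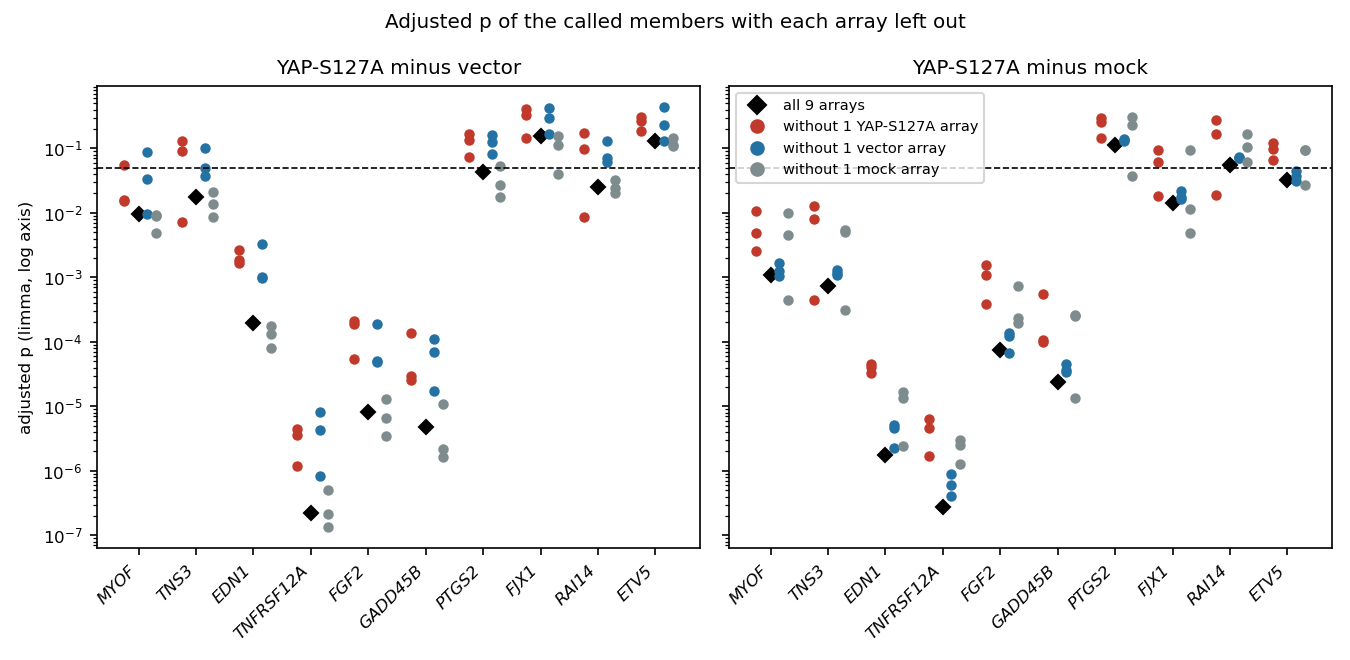
Adjusted p from limma (vertical log axis) of the 10 called targets with all 9 arrays (diamonds) and with each array left out (points coloured by the group of that array), for YAP-S127A minus vector on the left and YAP-S127A minus mock on the right, with the 0.05 threshold dashed. The points of TNFRSF12A, GADD45B, FGF2 and EDN1 stay below the line in both panels, those of PTGS2, RAI14, ETV5 and FJX1 cross it, and those of MYOF and TNS3 cross it in the left panel.

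Ligand and receptor partners of these proteins were listed to set the changes beside their pathways. Of 23 partners 22 were on the array and 18 were tested, with 0 called higher by limma in either comparison (1 against vector and 2 against mock at an unadjusted p under 0.05). Against vector 3 were lower, and 2 of these also against mock: the fibroblast growth factor receptor FGFR3 (8.88 in YAP-S127A cells, 9.35 in vector cells and 9.36 in mock cells) and the prostaglandin receptor PTGER4 (7.98 in YAP-S127A cells, 8.45 in vector cells and 8.39 in mock cells). Their differences were −0.47 and −0.48 for FGFR3 and −0.47 and −0.42 for PTGER4 (adjusted p = 0.0191 and 0.0151, and 0.00844 and 0.0209). FGFR4 was lower than in vector cells by the same size (−0.47, adjusted p = 0.0218) and differed by −0.30 from mock without a call. Chosen after its values were seen, TNFSF12, the ligand of TNFRSF12A, was at 7.66 in YAP-S127A cells, 7.86 in vector cells and 7.93 in mock cells, uncalled. FGFR1 was under the filter on dim probes. The median change of the tested partners was −0.11 against vector and −0.02 against mock. Of all genes tested, 1.70% were called lower against vector and 1.03% against both controls.

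Of 35 paralogs of the targets 27 were tested, with 5 higher against vector, 4 higher against mock, and 0 lower by limma in either comparison (2 in each at an unadjusted p under 0.05). The same 4 rose against both controls, where 1.34% of all genes tested did. FSTL3, the paralog of FSTL1 and a secreted inhibitor of activins, was at 8.51 in YAP-S127A cells, 7.74 in vector cells and 7.44 in mock cells, a rise of 0.77 and 1.08 (adjusted p = 4.69e-05 and 3.38e-07). The RNA-binding genes RBMS2 and RBMS1, paralogs of RBMS3, rose by 0.88 and 0.80 against vector and by 0.63 and 0.48 against mock. SERTAD2, a paralog of SERTAD4, rose by 0.59 and 0.39. EDN2, a paralog of EDN1 named after its values were seen, rose by 0.50 against vector (adjusted p = 0.00675) and differed by 0.26 from mock (adjusted p = 0.188). FSTL1, RBMS3 and SERTAD4 themselves were at or within 0.25 of background, at 5.91, 6.40 and 6.14 in YAP-S127A cells. They showed no rise to a clear signal there. A fall or a small rise would be hidden at this level, which limits any comparison with these paralogs.

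Other reported targets outside the 32 were listed with earlier results of these data known, so they are no independent yardstick. Of the list of 20, 18 were tested. By limma 10 of these 18 were higher against both controls, where 1.34% of all genes tested were. Lower were 0 of the 18, by limma or at an unadjusted p under 0.05. The median change of the 18 was 0.51 against vector and 0.46 against mock, and CCN1, CAVIN1, CAV1 and AJUBA had the lowest adjusted p. Of a 22-gene YAP/TAZ target signature across cancers, 13 genes are among the 32. In that signature 19 genes were tested, 5 were higher against both controls and 0 lower, again also unadjusted, with medians of 0.33 and 0.27. Of its genes among the 32, MYOF was called against both controls, FJX1 against mock only and the others in neither comparison.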

How the data were processed

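Total RNA of 9 MKN45 samples was amplified to biotin-labelled cRNA, per the labels' protocols, and hybridised to Illumina bead arrays. The deposited table gave 1 intensity per probe and array for 47231 probes on a linear scale, used without detection p-values, and the deposited series matrix gave log2 values of the same arrays, quantile normalized by its values. BeadStudio is named in the submitters' processing notes, with its version and settings not given in the sources used here.

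Intensities were background-corrected with normexp (offset 50, limma 3.58.1, R 4.3.3), log2-transformed and then quantile normalized. The offset and remaining background shrink the differences of dim genes. Probes with a mean over 9 arrays above the lower quartile of all probes (6.18) were kept (35423). GEO's platform annotation gave 1 gene symbol to 30113 probes, several to 8 and none to 17110, and 30074 symbols were updated through gene IDs. The probe with the highest mean stood for its gene (16180 genes), and the other probes served as a check (12 of the 32 targets had several). A single limma fit of all arrays gave each group its mean, with 6 residual and 16.4 prior degrees of freedom, with Benjamini-Hochberg adjustment over all genes. Standard errors and 95% confidence intervals are those of limma. The fit was tested on simulated data.

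The targets, the further gene lists and the tests were chosen with earlier results of these data known. Every target was named, with array values for those called, and of each further list at most 4 called genes with the lowest adjusted p and 4 others in list order. KRT8, TNFSF12 and EDN2 were named outside this rule, after their values were seen. Promoter windows were searched for the motif letters on both strands, with no test. Alternatives were other background corrections, scalings, filters, probe rules, bounds, moderation settings, thresholds, a replicate block and leaving out each array.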

Additional observations from a re-analysis of the deposited data

How the results depend on the processing

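Each target's differences, vector minus mock included, were recomputed under the other settings, 1695 values in all. Of these, 1643 kept their side of the threshold, 38 lost a call, 14 gained one and 0 changed direction while called. A change of direction between uncalled values was counted as kept. TNFRSF12A, GADD45B, FGF2 and EDN1 kept both calls under all 22 settings. With an offset of 16 the count called higher against vector was 4, against 7, and it was 4 with a 1.5-fold minimum. The count called lower was 0 against either control with an offset of 16, after scaling to equal medians, at a threshold of 0.01 and with a 1.5-fold minimum. The count lower against mock was 2 in place of 1 (RAI14 beside ETV5) without background correction, with the deposited log2 values, with a filter at the median, with trend and robust moderation and with array weights. With an offset of 16, TNS3 and MYOF lost their calls against vector (adjusted p = 0.11 and 0.0855, limma) and FJX1 its call against mock (0.0977). After scaling to equal medians, TNS3 lost its call against vector (0.0858) and FJX1 its call against mock (0.0568). PTGS2 lost its call in both settings (0.154 and 0.176). PTGS2 also lost its call with every probe tested (adjusted p = 0.062) and with the mean of probes (0.0872). After scaling to equal medians 38.5% of all calls against vector and 31.3% against mock were higher, beside 50.8% and 51.2%, and with an offset of 16 59.3% and 62.3%.

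With each array left out in turn, the count called higher against both controls ranged from 4 to 7, that against vector from 4 to 9, that against mock from 6 to 8, and the count lower from 0 to 1 against either. Vector against mock stayed at 0, and the targets above background without a call ranged from 11 to 18 and those at background from 8 to 11. Taking the lower quartile of all probes as the bound put 5 at background, and the 99th percentile of the olfactory receptor probes 13. Low signal over background limits what can be said of these and of the 7 near the bound.

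Deviations of same-numbered arrays from their group means had correlations of −0.146 to 0.1. Those of differently numbered arrays had correlations of −0.09 to 0.131. These weak values cannot show whether the samples were paired. With replicate number as a block, 283 genes were higher and 275 lower against vector, and no call of a target changed. Against mock, 330 and 318 genes were higher and lower with the block. FGF2, for example, had an adjusted p of 4.16e-05 against vector with the block.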
